A study of Mus musculus with 8 samples.

Results

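The transcripts of 10 genes, of peptide hormones, neuropeptides and a hormone-binding protein (Crhbp), were followed through single-cell RNA-seq libraries of mouse thymic epithelial cells (TEC), in which they are known as self-antigens of the thymic medulla. The genes were Pyy, Gip, Cck, Nts, Calca, Gal, Sst, Gcg, Ins2 and Crhbp, taken by symbol as 10 of the 27514 genes present in the gene lists of all 8 libraries, and all 10 had a row in every library. No measured value entered that rule, although the genes were proposed with earlier results of these data in view. All mice were wild-type (WT) C57 B6 (CD45.2), none carried a transgene or received a treatment, and viable (DAPI-) CD45- EpCAM+ thymic cells were sorted. The sort took total TEC at E13.5, cortical TEC (cTEC), which bear Ly51 and do not bind the lectin UEA-1, in fetuses of E15.5 and E17.5, in newborns (NB, 0 to 2 days old) and in adults (4 to 6 weeks old), and medullary TEC (mTEC), which lack Ly51 and bind UEA-1, in adults. Each stage before the adult had 1 library and each adult group had 2, named replicates 1 and 2 after the 2 data sets in which they were captured. How many mice were pooled into a library is not given in the sources used here, and no fetal or newborn mTEC library was analysed here.

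Peptide hormones are made as longer precursors, which prohormone convertases cut and which endocrine cells and neurons store in dense-core granules until release. The mTEC transcribe many genes that are otherwise limited to one peripheral tissue, and present fragments of the products to developing thymocytes, so that T cells reactive to them are deleted or diverted. The nuclear protein Aire is needed for a large share of this transcription, and any one such gene is known to be transcribed in a small minority of mTEC at a time. Pyy, Gip and Cck encode gut hormones, Nts, Calca, Gal and Sst peptides of neurons and endocrine cells, Gcg and Ins2 the islet hormones glucagon and insulin, and Crhbp a secreted protein that binds corticotropin-releasing hormone.

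The genes lie on 8 chromosomes. In GRCm38, with GENCODE positions, Pyy lies at chr11:102106676-102107832 (minus strand), Gip at chr11:96024545-96030831 (plus), Cck at chr9:121489824-121495694 (minus), Nts at chr10:102481756-102490486 (minus) and Calca at chr7:114631478-114636357 (minus). Gal lies at chr19:3409915-3414544 (minus), Sst at chr16:23889573-23890958 (minus), Gcg at chr2:62474530-62483650 (minus), Ins2 at chr7:142678656-142743381 (minus) and Crhbp at chr13:95431371-95444924 (minus). All 10 are annotated as protein coding. Pyy and Gip share chromosome 11 and Calca and Ins2 share chromosome 7.

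The bases just upstream of a start site are shown for 6 members, so that genes found in the same sorted cells can be compared in the sequence from which transcription starts. They are the 60 bases before the RefSeq start of the gene (build GRCm38.p6), read 5′ to 3′ on the strand of the gene, and capitals mark TATAA, the core of the TATA box.
Pyy (chr11:102107833-102107892, minus): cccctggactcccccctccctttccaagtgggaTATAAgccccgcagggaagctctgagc
Gip (chr11:96024485-96024544, plus): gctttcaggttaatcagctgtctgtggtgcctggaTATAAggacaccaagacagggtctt
Gcg (chr2:62483654-62483713, minus): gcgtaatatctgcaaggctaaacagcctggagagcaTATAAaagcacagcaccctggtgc
Cck (chr9:121495695-121495754, minus): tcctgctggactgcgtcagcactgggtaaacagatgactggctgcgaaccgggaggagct
Calca (chr7:114636358-114636417, minus): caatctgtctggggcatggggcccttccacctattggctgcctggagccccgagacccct
Gal (chr19:3414545-3414604, minus): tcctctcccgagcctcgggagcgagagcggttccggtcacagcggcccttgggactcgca

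The letters TATAA were searched on both strands, and this motif was chosen after the sequences were seen. They stood in the 60 bases of 3 of the 9 members with a promoter entry. Pyy has 2 RefSeq starts, and only the start shown here has TATAA in its 60 bases. Over all 32851 RefSeq promoters the share was 7.24%, counted per promoter, whereas the members were counted if either start held the letters. The match began 27 bases before the start in Pyy, 25 in Gip and 24 in Gcg. The other 3 sequences shown, of Cck, Calca and Gal, did not hold these letters, and no common sequence of the members is read from them. A match is a description of the letters and not evidence of a bound factor. Ins2 had no promoter entry, and Nts, Sst and Crhbp are not shown because their RefSeq start falls inside a longer GENCODE transcript.

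After the limits of the study on mitochondrial UMIs and detected genes, 25750 of 28334 deposited cells were kept. The adult mTEC libraries held 1586 cells (median 9500.5 UMIs per cell) and 5615 cells (median 11386), and the adult cTEC libraries 507 (median 3996) and 535 (median 7062). The other 4 libraries held 1981 to 8350 cells with medians of 6133 to 10366 UMIs, and total UMIs per library ran from 2257967 to 90103548. All 8 cTEC markers were lower and 8 of 9 mTEC II markers higher in adult mTEC than in adult cTEC, and Aire was at 433 and 398 CPM in mTEC against 8.86 and 2.72 in cTEC. Other markers did not part the lineages, and of 7 mTEC I markers 2 were called higher and 1 lower by the edgeR test given below. Their sum was 6883 and 1998 CPM in adult cTEC against 8880 and 4359 in mTEC. Dcn, a mesenchymal marker, was at 482 and 310 CPM in adult cTEC against 78.1 and 46.7 in mTEC. The part of non-cortical cells in the cTEC levels was not tested. Thymocyte-marked cells, with UMIs of at least 2 of 12 thymocyte markers, made up 2.27% and 2.90% of the mTEC libraries and 4.54% and 5.98% of the adult cTEC libraries. No pair of libraries shared more than 61 cell barcodes. Levels are given as UMI counts scaled to a common library total (CPM). A UMI counts the 3′ end of one transcript, so CPM were not scaled by gene length and members are not ranked by level. In such sums, fewer cells with a transcript and less transcript per cell cannot be told apart, and they are separated cell by cell further on.

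Among the gut hormones, Pyy (peptide YY, released from the lower gut after a meal) was at 137 CPM in adult mTEC replicate 1 and 180 in replicate 2, a mean of 159 ± 30.2 (SD, n = 2), and had 0 UMIs in both adult cTEC libraries. Gip (glucose-dependent insulinotropic polypeptide, from the upper gut) was at 41.4 and 76.8 CPM in mTEC, a mean of 59.1 ± 25.0 (SD, n = 2), and had 0 UMIs in both adult cTEC libraries. Their highest level outside adult mTEC was 0.331 CPM for Pyy at E13.5 and 0.0111 for Gip at E17.5. Cck (cholecystokinin, which drives gall bladder contraction and acts as a brain peptide) was at 52.4 and 71.9 CPM in mTEC, a mean of 62.1 ± 13.8 (SD, n = 2), and at 19.0 and 20.5 CPM in adult cTEC. In the earlier libraries Cck was at 9.70 CPM in newborns, 4.15 at E17.5, 4.09 at E15.5 and 8.53 in E13.5 TEC. Cck was thus found in every library, and its lowest mTEC library stood 2.55-fold above its highest other library. Its share of positive cells at a common depth of 3000 UMIs was 2.66% and 7.70% in mTEC and 3.65% and 3.54% in cTEC, so the share did not separate the lineages although the CPM did, and no order is read from it.

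Among the neuropeptides, Nts (neurotensin, a peptide of gut and brain) was at 87.6 and 118 CPM in mTEC, a mean of 103 ± 21.7 (SD, n = 2), and had 0 UMIs in both adult cTEC libraries. Calca (calcitonin and calcitonin gene-related peptide, from thyroid C cells and sensory neurons) was at 247 and 176 CPM in mTEC, a mean of 212 ± 50.5 (SD, n = 2), and at 3.54 and 1.48 CPM in adult cTEC. Calca was the only one of these genes besides Gcg to be lower in mTEC replicate 2 than in replicate 1, and it was found in all 8 libraries. Gal (galanin, a peptide of neurons and endocrine cells) was at 130 and 138 CPM in mTEC, a mean of 134 ± 5.55 (SD, n = 2), and at 1.77 and 3.95 CPM in adult cTEC. In cTEC replicate 2, 1 cell held 15 of its 16 UMIs, so that level and the gap given below for Gal rest on 1 cell. Before the adult, Nts was at 0.0404 CPM or less, Gal at 0.202 or less, and Calca at 2.14 CPM in newborns, 1.22 at E17.5, 2.28 at E15.5 and 4.56 in E13.5 TEC. All 6 libraries outside adult mTEC were therefore far below both mTEC libraries for these 3 genes, with gaps of 38.6-fold for Calca and 33.0-fold for Gal between the lowest mTEC library and the highest other one.

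Sst (somatostatin, which inhibits release of other hormones) was at 25.3 and 31.0 CPM in mTEC, a mean of 28.2 ± 4.04 (SD, n = 2), with 0 UMIs in both adult cTEC libraries. It was the member with the narrowest gap after Cck, because the E13.5 library held 6.35 CPM, while E15.5 and NB cTEC had 0 UMIs and E17.5 had 1. The E13.5 signal was 96 UMIs in 9 cells, with up to 30 UMIs in a cell, and 5 of the 9 cells held at least 10. Of these 9 cells, 77.8% had UMIs of at least 2 thyroid or C cell markers, against 3.14% of the other E13.5 cells, and 66.7% had at least 2 genes of the endocrine granule list, against 1.72%. The E13.5 Sst UMIs thus sat in a few cells of total TEC that carried markers of another gland, and the part of such cells in this level was not tested further.

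Of the islet hormones, Gcg (proglucagon) was at 18.0 and 13.3 CPM in mTEC, a mean of 15.6 ± 3.37 (SD, n = 2), and had 0 UMIs in both adult cTEC libraries and at most 0.132 CPM in any other. Ins2 (insulin) was at 17.4 and 59.1 CPM in mTEC, a mean of 38.2 ± 29.5 (SD, n = 2), and was the only member with 0 UMIs in all 6 other libraries. The mTEC replicates of Ins2 lay further apart, relative to their mean, than those of any other member. Crhbp was at 84.0 and 90.6 CPM in mTEC, a mean of 87.3 ± 4.60 (SD, n = 2), with 0 UMIs in both adult cTEC libraries. Unlike the other members at 0 in adult cTEC, Crhbp was found at a low level in all 4 fetal and newborn libraries, namely 0.687 CPM in newborns, 1.17 at E17.5, 1.99 at E15.5 and 1.19 in E13.5 TEC. No cell of those libraries held more than 3 Crhbp UMIs.

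Both mTEC libraries lay above all 6 others for all 10 genes. Of all 27514 genes 24.6% did so, and 34% lay above both adult cTEC libraries without overlap. For 7 of the members this rests on 0 UMIs in adult cTEC, and of the 4142 genes with 0 UMIs there and a UMI in both mTEC libraries 82.6% lay above all 6 others.

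**Figure D1:**
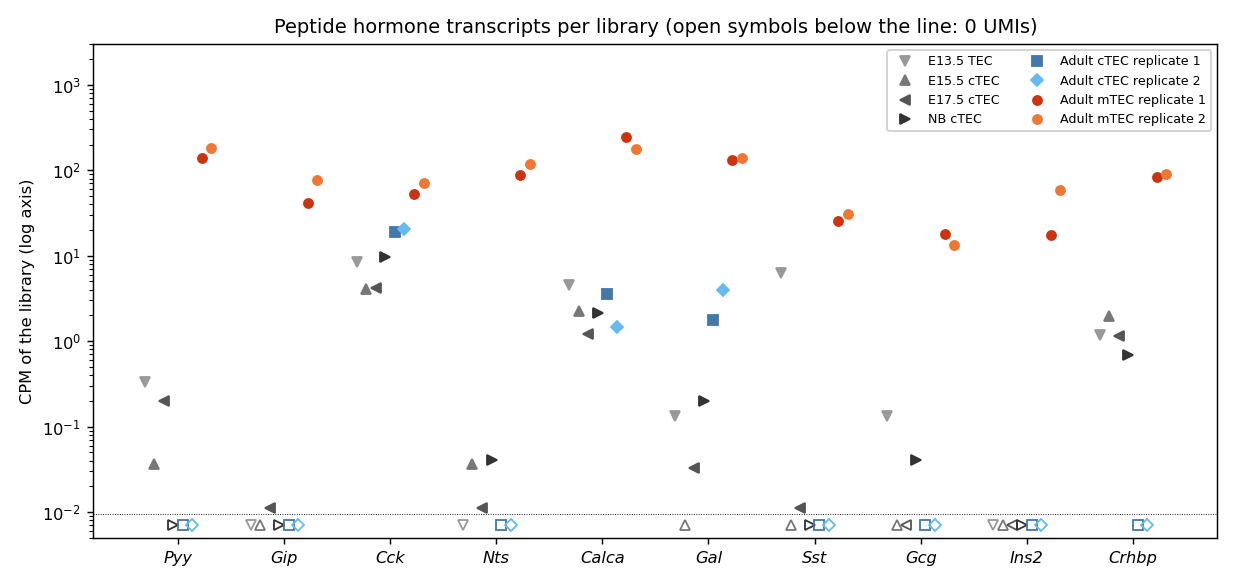
Level of each of the 10 genes (CPM, log axis) in each of the 8 libraries, with open symbols below the dotted line for libraries with 0 UMIs. The adult mTEC libraries (red and orange circles) lie above every other library for all 10 genes, as for 24.6% of all genes, most narrowly for Cck and Sst.

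Adult mTEC were compared with adult cTEC over the 4 adult libraries. All 10 members were called higher in mTEC by edgeR's quasi-likelihood test at a Benjamini-Hochberg adjusted p under 0.05, where 21.3% of the 15650 genes tested were called higher and 11.3% lower, and the median log2 difference of all genes was 0.14. The 7 members without a UMI in cTEC passed the filter on low counts only through mTEC and so could be called in 1 direction only, as were 961 of all 995 such genes, and their count is not read as support. For these the ratio of the mTEC mean to a floor of 3 UMIs over both cTEC libraries is a lower bound, at least 334-fold higher for Pyy, 216-fold for Nts, 183-fold for Crhbp and 124-fold for Gip. The bound was at least 80.4-fold for Ins2, 59.3-fold for Sst and 32.9-fold for Gcg. For the members with UMIs in both lineages the log2 difference was 6.57 (SE 0.52, edgeR adjusted p = 7.0e-15) for Calca, 5.59 (SE 0.50, edgeR adjusted p = 2.4e-13) for Gal and 1.71 (SE 0.40, edgeR adjusted p = 0.00056) for Cck. DESeq2 called 7 of the 10, and its adjusted p was 0.0835 for Gip, 0.108 for Sst and 0.118 for Ins2. Cck lost its call without cTEC replicate 1 (edgeR adjusted p = 0.0624), cTEC replicate 2 (0.0552) or mTEC replicate 2 (0.0673), and Ins2 without cTEC replicate 1 (0.0578) or cTEC replicate 2 (0.0693). Without thymocyte-marked cells all 10 were called. With 2 libraries a group, p-values cover the spread between these libraries only, and the test shares that spread over genes. Without the term for the data set, the edgeR adjusted p of the members ran from 0.00607 to 0.0182.

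The share of mTEC with at least 1 UMI of a member differed widely between the replicates. It was 7.25% (95% exact Clopper-Pearson interval 6.02 to 8.64, 115 cells) and 38.2% (36.9 to 39.5, 2143 cells) for Pyy, 4.41% and 20.1% for Gip and 4.60% and 20.6% for Cck in replicates 1 and 2. Among the neuropeptides it was 6.56% and 24.1% for Nts, 20.1% and 37.4% for Calca, 6.37% and 28.2% for Gal and 2.02% and 6.61% for Sst. Every member was found in a larger share of replicate 2, by a median of 4.06 times, even though Calca and Gcg had fewer CPM there. The remaining shares were 3.28% and 4.15% for Gcg, 2.40% and 16.99% for Ins2 and 23.9% and 32.8% for Crhbp. These intervals cover counting error only.

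Most positive cells of replicate 2 held a single UMI, from 50.3% of them for Crhbp to 79.2% for Sst. In adult cTEC no cell had a UMI of 7 members, for which the exact upper limit on the share of cells with a UMI was 0.725% and 0.687%. That limit covers captured UMIs at the lower depths given above and not cells with the transcript, and as separate captures the cTEC libraries do not measure free RNA in those of mTEC. Within mTEC replicate 2, the 10% of cells richest in markers of the mTEC I subset (Ccl21a, Krt5, Krt14 and others) still had a Pyy UMI in 32.4%, against 38.8% of the other cells, at medians of 7791.5 and 12115 UMIs, yet none of them held 10 Pyy UMIs. The share with 1 UMI in replicate 2 is therefore given with this level beside it, and UMIs from RNA free in the droplet cannot be told apart from transcripts of the cell at 1 UMI.

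Raising the number of UMIs required brought the replicates closer together. The median ratio of the share in replicate 2 to that in replicate 1 was 4.06 at 1 UMI, 2.12 at 2, 1.62 at 5 and 1.54 at 10. Cells with at least 10 UMIs of a member are called bright here, a limit chosen after these values were seen. For the gut hormones, 28 cells (1.77%) and 152 cells (2.71%) were bright for Pyy, 20 (1.26%) and 112 (1.99%) for Gip, and 13 (0.820%) and 90 (1.60%) for Cck in replicates 1 and 2. For the neuropeptides, 32 (2.02%) and 175 (3.12%) were bright for Nts, 87 (5.49%) and 251 (4.47%) for Calca, 30 (1.89%) and 171 (3.05%) for Gal, and 11 (0.694%) and 42 (0.748%) for Sst. Calca had the largest bright share in both replicates and Gcg the smallest, with 9 (0.567%) and 24 (0.427%) cells. Ins2 was bright in 10 (0.631%) and 75 (1.34%) cells and Crhbp in 38 (2.40%) and 136 (2.42%).

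**Figure D2:**
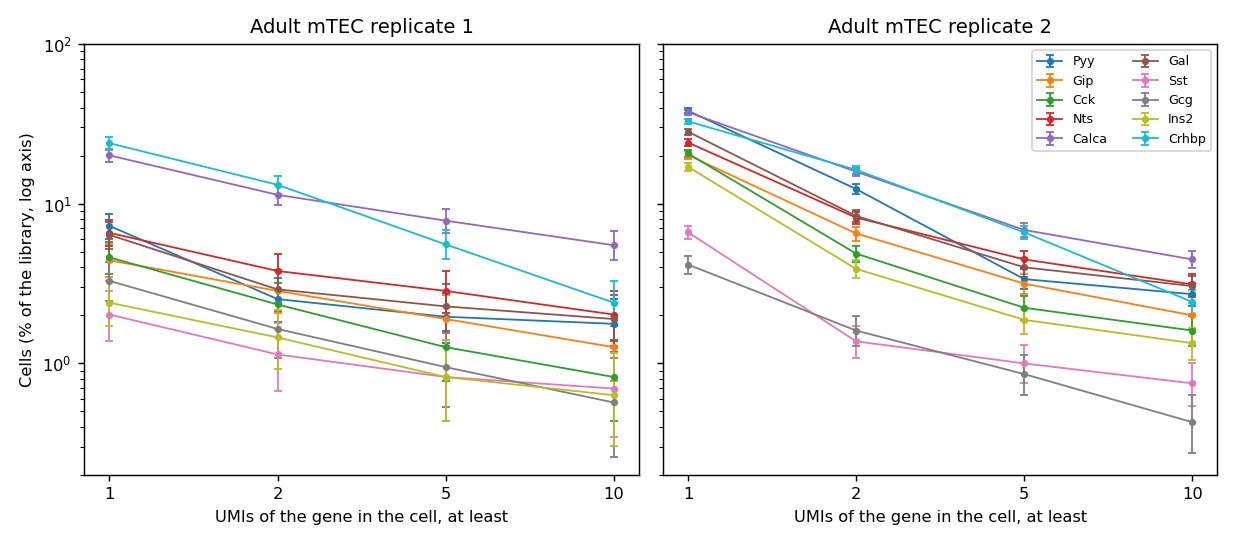
Share of adult mTEC (percent of the library, log axis, with 95% exact intervals) holding at least 1, 2, 5 or 10 UMIs of each gene, in replicate 1 (left) and replicate 2 (right). Shares at 1 UMI reach 38.2% in replicate 2, while those at 10 UMIs lie between 0.427% and 5.49% in both replicates.

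The bright cells, though few, held most of the transcript of 9 members. They carried 94.9% and 76.7% of all Pyy UMIs in replicates 1 and 2, 93.9% and 78.1% of Gal UMIs, 90.8% and 78.8% of Sst UMIs and 87.2% and 71.9% of Calca UMIs. Across the other members the share was lowest for Gcg among the hormones, at 68.4% and 54.2%, and lower again for Crhbp, at 42.3% and 36.7%. In replicate 1, 50% of the Pyy UMIs lay in 7 cells, 50% of the Cck or Sst UMIs in 4 cells each and 50% of the Calca UMIs in 20, whereas for Crhbp it took 52 cells. Replicate 2, with more cells, gave the same extremes, with 17 cells for Sst and 242 for Crhbp.

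A positive cell held on average 19.9 Pyy UMIs in replicate 1 and 5.68 in replicate 2, and the highest cell held 338 and 329. For Gal the mean was 21.6 and 5.89 (highest 241 and 167), for Calca 12.99 and 5.66 (292 and 233), for Nts 14.1 and 5.89 (144 and 164) and for Cck 12.0 and 4.19 (208 and 176). Means per positive cell were lower in replicate 2 for all 10 members, in which single UMIs were more common. Crhbp had the lowest mean in both, 3.70 and 3.33, and a highest cell of 33 and 47 UMIs. Crhbp thus had its UMIs spread over more cells than the other members, as counted by the cells that held 50% of them (52 and 242). Other measures did not set it apart in replicate 2. There Pyy (2143 cells) and Calca (2099) had more positive cells than Crhbp (1839), every member had a median of 1 UMI per positive cell, and the mean of Gcg was 3.85. Over all genes with at least 50 positive cells, the median of this mean was 1.27 in both libraries, and all members with that many cells, 8 in replicate 1 and 10 in replicate 2, stood above it.

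The relation to Aire was read from Aire UMIs in the same cell. At least 1 Aire UMI was found in 817 mTEC (51.5%) of replicate 1 and 4201 (74.8%) of replicate 2, and these Aire-positive cells were deeper, with medians of 12443 and 13082 UMIs against 7281 and 7240 in Aire-negative cells. A cell without an Aire UMI may still express or have expressed Aire. When UMIs were summed over the Aire-positive and the Aire-negative cells of each library, all 10 members were higher in the Aire-positive sum in both libraries, where 44.3% of all genes with a UMI in both were higher and 33.6% lower. With library as a block, the log2 difference was 1.07 (SE 0.38) for Pyy, 1.91 (SE 0.18) for Gip and 1.59 (SE 0.36) for Cck, and 1.39 (SE 0.44) for Nts, 3.29 (SE 0.75) for Calca, 2.18 (SE 0.62) for Gal and 2.24 (SE 0.83) for Sst. It was 2.19 (SE 0.78) for Gcg, 0.78 (SE 0.17) for Ins2 and 2.64 (SE 0.35) for Crhbp, and the median of all genes was 0.00. Calca and Crhbp thus had the largest differences and Ins2 the smallest.

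The Aire-positive and Aire-negative cells also differed in their markers. Summed mTEC I markers were at 2268 and 3245 CPM in Aire-positive cells against 20451 and 10143 in Aire-negative cells of replicates 1 and 2, with 7 of 7 genes lower in both libraries, and tuft markers at 60.6 and 144 CPM against 145 and 427, with 9 of 10 lower. The mTEC II markers other than Aire were higher for 8 of 8 genes. Cycling markers were at 1146 and 1002 CPM against 737 and 793, with 7 of 8 higher, and myeloid markers at 592 and 513 CPM against 96.8 and 299, with 5 of 6 higher. Mesenchymal markers were mixed, at 118 and 99.7 CPM against 163 and 85.4, with 5 of 8 higher in both, and thymocyte markers were at 49.1 and 38.0 CPM against 36.7 and 29.4, with 4 of 12 higher. No gene of any of these lists was at 0 in all 4 sums. The part of this difference in subset make-up in the member differences was not tested.

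With 4 sums the edgeR quasi-likelihood test called 0 of the 10 members (Benjamini-Hochberg adjusted p from 0.140 to 0.192) and 0% of the 15877 genes tested. At an unadjusted p under 0.05 it held 7 of the 10, all higher, beside 13.9% of all genes higher and 13.4% lower. DESeq2 called 9 of the 10 higher, where it called 6.45% of 14099 genes higher and 5.26% lower. Its adjusted p ran from 1.1e-08 for Calca and 2.9e-08 for Crhbp to 0.0490 for Pyy, and was 0.219 for Ins2, the exception. The call thus depended on the tool, while the direction did not. After every cell was thinned to 6000 UMIs before Aire was read, all 10 members were still higher, with log2 differences from 0.57 to 3.06, and edgeR again called 0 of them.

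The number of Aire UMIs gave a finer view at this common depth of 6000 UMIs. Crhbp was higher at each step in both libraries, from 15.7 CPM (95% exact Poisson interval 11.9 to 20.3) in replicate 1 cells without an Aire UMI through 28.7 at 1 UMI and 51.9 at 2 to 198 (181 to 215) at 3 or more. In replicate 2 its levels were 29.9, 38.5, 85.6 and 170 CPM. Calca went from 19.8 CPM without Aire to 551 at 3 or more Aire UMIs in replicate 1 and from 68.6 to 310 in replicate 2, Cck from 13.3 to 141 and from 47.0 to 102, and Sst from 2.44 to 88.6 and from 17.8 to 44.6. For these genes the ends of the range were far apart in both libraries, but the steps between were not in one order in both. Gal was higher at each step in replicate 1 only, and Gip and Calca in replicate 2 only. From end to end Gip went from 13.8 to 82.8 and from 35.8 to 134 CPM, and Gcg from 3.25 to 31.7 and from 5.39 to 18.9. Gal went from 41.7 to 235 and from 81.9 to 204, and Nts from 39.2 to 135 and from 92.4 to 157. Near the cut, 145 and 1016 of the thinned cells held exactly 1 Aire UMI.

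Pyy and Ins2 varied least steadily with Aire. Pyy was at 61.1, 126, 22.2 and 310 CPM over 0, 1, 2 and 3 or more Aire UMIs in replicate 1 and at 151, 153, 402 and 174 in replicate 2, where its highest level was at 2 Aire UMIs. The share of replicate 2 cells with a Pyy UMI did not follow Aire, at 25.6%, 23.0%, 25.4% and 23.7%, while the share of bright cells was 1.28%, 1.57%, 4.31% and 2.32%. Ins2 was at 11.1, 19.5, 12.96 and 18.0 CPM in replicate 1 and at 51.0, 76.8, 40.9 and 78.2 in replicate 2.

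Seen from the bright cells, Aire was more common than in cells without the member for all 10 genes in both libraries. Of the cells bright for Calca, 100% (87 of 87) in replicate 1 and 98.4% in replicate 2 had an Aire UMI, against 44.0% and 69.1% of the cells without Calca. For Crhbp the shares were 100% and 99.3%, against 41.4% and 68.0%. For Pyy they were 82.1% (63.1 to 93.9) and 83.6% (76.7 to 89.1), against 50.4% and 71.9%, and for Ins2 70.0% (34.8 to 93.3) and 86.7% (76.8 to 93.4), against 51.0% and 73.1%. A part of the cells rich in Pyy or Ins2 thus had no Aire UMI, and almost none of those rich in Calca or Crhbp. Over the members, 70.0% to 100% of bright cells were Aire-positive, and bright cells had a higher median UMI count than cells without the member in most of these comparisons.

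**Figure D3:**
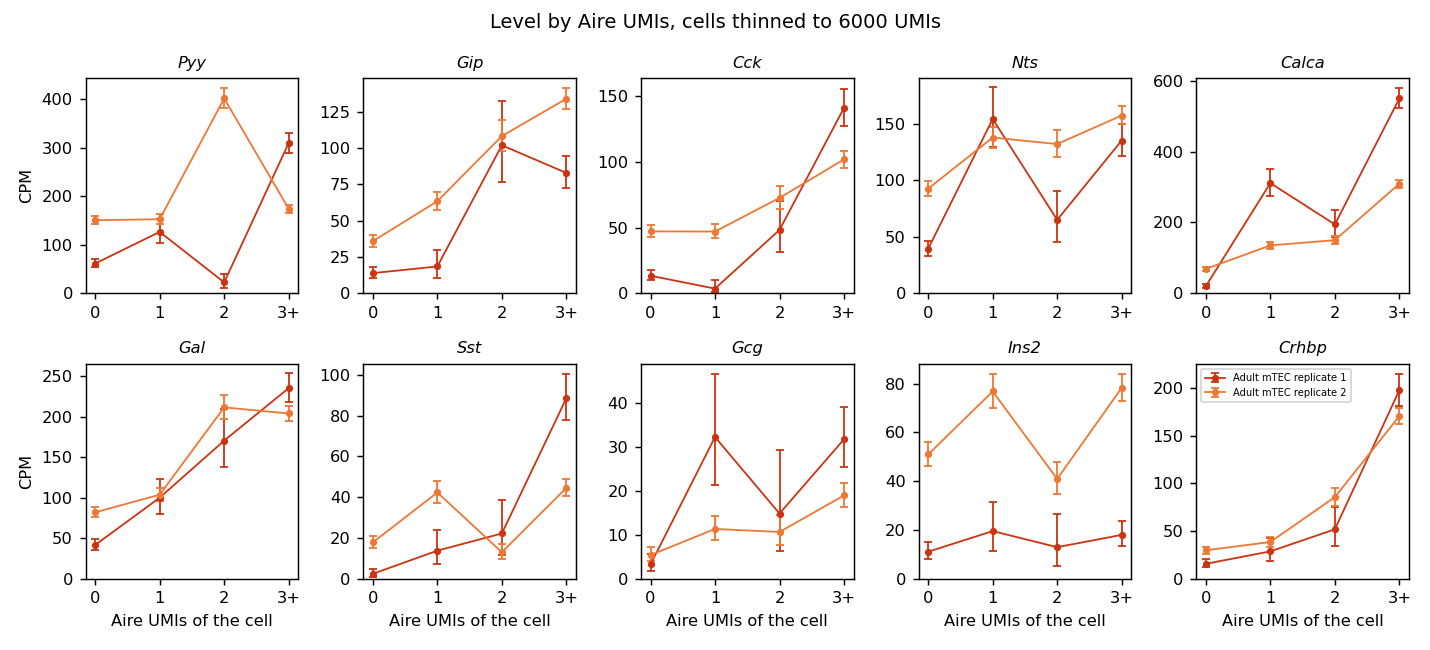
Level of each gene (CPM with 95% exact Poisson intervals, which cover counting error only) in adult mTEC with 0, 1, 2 or at least 3 Aire UMIs, after thinning each cell to 6000 UMIs. Crhbp is higher at each step in both replicates, whereas Pyy peaks at 2 Aire UMIs in replicate 2 at 402 CPM.

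Most bright cells were bright for 1 member only. At least 1 member was bright in 211 of 1586 cells (13.3%) of replicate 1 and in 925 of 5615 (16.5%) of replicate 2, and 74.4% and 73.0% of these were bright for exactly 1 of the 10. No cell was bright for more than 4. Cells bright for 2 members were nevertheless more common than the product of the single shares, at 2.71% and 3.62% of cells against 1.14% and 1.77%. The same held for 3 members, at 0.567% and 0.730% against 0.0475% and 0.0990%.

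Over all 45 pairs, 30 were above the product of the single shares in replicate 1, with the other 15 at 0 doubly bright cells, and 42 in replicate 2. The product was under 1 cell for 40 and 11 of the pairs, where any doubly bright cell gives a ratio above 1, so these counts are not read further. Values are given for the 5 pairs with at least 5 doubly bright cells in both libraries, a minimum that by itself favours ratios above 1. Cells bright for both Pyy and Gal were 9.44 and 3.89 times as many as the product (5 and 18 cells), and those for Calca and Crhbp 4.80 and 4.61 times (10 and 28 cells). Calca with Gal gave 4.25 and 3.40, Nts with Calca 3.99 and 2.94, and Pyy with Calca 3.26 and 1.77. When the product was formed within Aire-positive and Aire-negative cells, each of these ratios was lower but above 1, such as 6.60 and 3.58 for Pyy with Gal and 2.47 and 3.53 for Calca with Crhbp. At 1 UMI and a common depth of 6000, 43 of the 45 pairs were above 1 in replicate 1 and 41 in replicate 2. Those below 1 were Ins2 with Crhbp (0.634 and 0.907) in both libraries, Gal with Sst in replicate 1 (0 cells), and Calca with Ins2 (0.976), Cck with Sst (0.864) and Cck with Ins2 (0.945) in replicate 2. The 12 pairs whose product was at least 5 cells in both libraries were all above 1 in both. The median ratio over the 45 pairs was 2.12 in replicate 1 and 1.15 in replicate 2, and 1.77 and 1.13 within Aire classes. These are counts of cells within a library and carry no test, and no doublets were called, so 2 cells in 1 droplet cannot be told apart from 1 cell with both transcripts.

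Subsets of mTEC are known by marker genes, and each library was split by the share of UMIs that a cell gave to a marker list, setting the top 10% of cells against the rest. These are ranges of a score and not cell types. The share of all genes higher or lower in each range was not computed. Counts of members in the ranges are therefore not read as particular to the members. In the mTEC I range, whose marker Ccl21a encodes a chemokine, all 10 members were lower in both libraries, at 0.0481 and 0.257 of the level in other cells for Pyy and 0.0200 and 0.154 for Calca. Nts, Sst, Gcg and Ins2 had 0 UMIs in that range of replicate 1, where the exact upper limit was 3.26 CPM, and Cck kept the largest part, 0.405 and 0.417. In the mTEC II range (Aire, Fezf2, Cd80 and others, the mature antigen-presenting subset) all 10 were higher in both libraries, by 7.68 and 2.58 times for Cck, 6.63 and 3.11 for Calca, 5.21 and 3.29 for Gip and 2.53 and 1.45 for Pyy. In replicate 1 these rest on 3 to 33 bright cells a member, 5 of them for Cck, and the positive share of Ins2 in replicate 2 went the other way, at 16.4% against 17.1%. All 10 were lower in the range of cycling cells, including Crhbp at 0.401 and 0.538 and Pyy at 0.163 and 0.206. These cells were deeper, with medians of 16075 and 18968 UMIs against 8979 and 10839, and in replicate 2 the positive share went the other way for 9 of 10 members, all but Gcg, such as 49.5% against 36.0% for Calca and 45.0% against 37.4% for Pyy. In replicate 1 it did so for 3, Calca, Sst and Crhbp.

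Beyond these subsets the members parted ways. In the mTEC III range (keratinised cells with Krt10, Ivl and Lor) 6 were higher in both libraries, among them Pyy at 1.43 and 2.34 times and Sst at 1.44 and 2.83, and for the other 4 the libraries differed in direction. In replicate 2 the share of positive cells was lower in the range for 9 of the 10, at 30.8% against 39.0% for Pyy and 5.87% against 6.69% for Sst, and Sst in replicate 1 rests on 1 bright cell. In the tuft-like mTEC IV range only Sst was higher in both, by 4.81 and 1.87 times, although its positive share was much alike (2.516% against 1.962%, and 6.76% against 6.59%) and replicate 1 rests on 2 bright cells. In that range Gal, Gcg and Crhbp were lower in both and 6 members differed between the libraries. The range of endocrine granule genes (chromogranins, secretogranins and others) held more of all 10 members in both libraries, by 7.40 and 4.22 times for Pyy, 10.2 and 3.11 for Gip and 13.9 and 3.54 for Ins2. The lowest ratio was 2.26 for Gcg in replicate 1, which rests on 2 bright cells and was 4.30 in replicate 2, and 1.34 for Crhbp in replicate 2, which was 2.63 in replicate 1. The range of endocrine transcription factors did not, with 2 members higher in both libraries, 2 lower and 6 that differed. Few UMIs set the granule and tuft ranges. For the granule list 74.6% and 58.7% of cells had 0 UMIs, and the range began at 0.0173% and 0.0273% of the UMIs of a cell. For the tuft list 63.9% and 44.4% of cells had 0 UMIs, with edges at 0.0204% and 0.0278%.

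**Figure D4:**
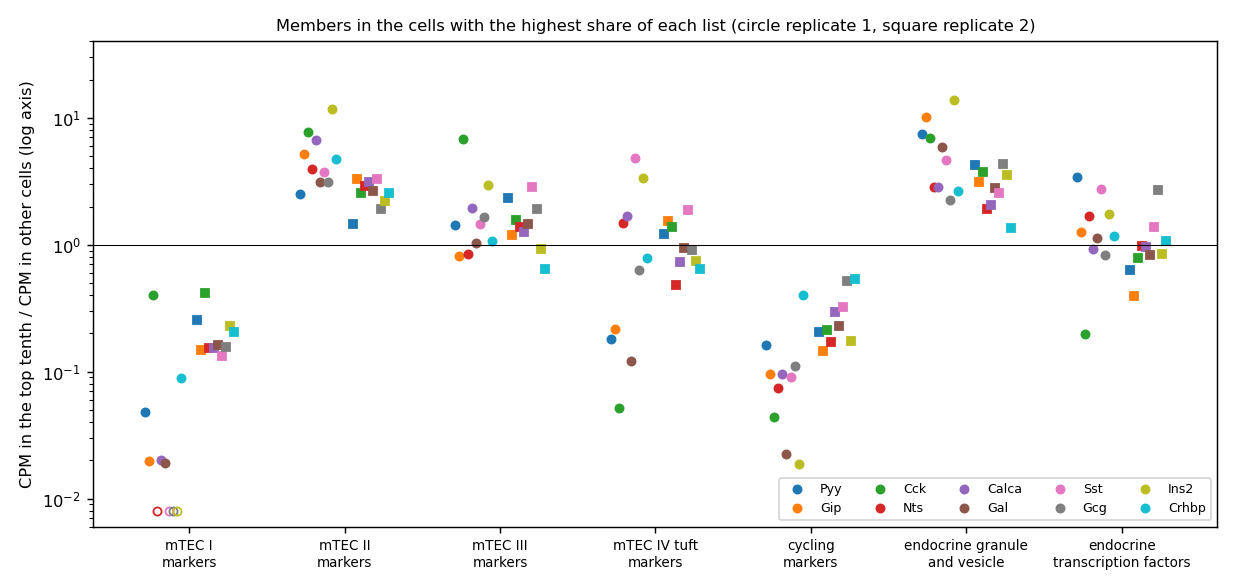
Ratio of the level of each gene in the 10% of adult mTEC with the highest share of each marker list to its level in the other cells (log axis), with circles for replicate 1, squares for replicate 2 and open symbols at the foot for 0 UMIs. All 10 genes lie below 1 in the mTEC I and cycling ranges and above 1 in the mTEC II and endocrine granule ranges, and the share of all genes that do so was not computed.

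The machinery around these hormones was followed through gene lists that had been set with earlier results in view. Of 62 other peptide hormones 49 were tested, and edgeR called 38 higher and 1 lower in adult mTEC than in adult cTEC, beside the background of 21.3% and 11.3%. Of the 49, 20 had 0 UMIs in both cTEC libraries and passed the filter only through mTEC, which fixed the direction of any call. Of the 29 with UMIs in cTEC, 18 were called higher and 1 lower, where 16.2% and 12.1% of all 14655 such genes were. Ppy (pancreatic polypeptide, the paralog of Pyy) was at 58.3 and 70.1 CPM, Tac2 (neurokinin B) at 64.3 and 65.0 and Cga (the common subunit of pituitary glycoprotein hormones) at 50.9 and 48.9, all with 0 UMIs in cTEC. The exception was Penk (proenkephalin), which fell by 2.18 on the log2 scale (SE 0.41, edgeR adjusted p = 2.6e-05). Calcb, the paralog of Calca, was at 630 and 551 CPM, against 44.3 and 8.89 in cTEC. The ligands of Crhbp were low, at 5.09 and 3.07 CPM for Crh and 3.41 and 1.35 for Ucn in mTEC, with 0 UMIs of either in both cTEC libraries.

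Among 11 granule and vesicle genes with UMIs in cTEC 7 were called higher in mTEC and 0 lower (background 16.2% and 12.1%). Among them were Vgf (log2 difference 5.54, SE 0.78, edgeR adjusted p = 6.6e-08), at 14.0 and 14.95 CPM against 0.443 and 0.247 in cTEC, and Chga (chromogranin A), at 28.6 and 27.1 CPM against 5.76 and 0.988. The processing genes were mixed, with 2 of 8 called higher and 2 lower. The convertase Pcsk2, which cuts prohormones in granules, was higher (2.82 and 5.92 CPM against 0.443 and 0), as was its chaperone Scg5 (59.5 and 58.6 against 8.86 and 6.18), while Cpe, the carboxypeptidase that trims the cut ends, fell by 1.51 on the log2 scale (SE 0.57, edgeR adjusted p = 0.0349) and Pcsk6 by 2.35. In adult cTEC Vgf and Pcsk2 lay below the level of 3 UMIs, 1.33 and 0.741 CPM in replicates 1 and 2. Of 7 endocrine transcription factors Insm1 was called higher, at 80.3 and 107 CPM, and Isl1 lower, by 1.83 on the log2 scale. Among 8 receptors of the members 2 were called higher, and Galr2 was lower, by 3.17 on the log2 scale (SE 0.72, edgeR adjusted p = 0.00038). These shares of processing genes, transcription factors and receptors lay near the background and are no result about the lists. Scgn, Pcsk1n, Neurog3, Fev and 5 receptors, Calcr, Sstr3, Crhr1, Ntsr1 and Gcgr, had 0 UMIs in both cTEC libraries and so could pass only as higher. No gene of these lists was called between Aire-positive and Aire-negative cells by edgeR, as no gene was.

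Within mTEC, the 211 and 925 cells bright for any member were set against the rest, without a test. Summed granule and vesicle genes were 3.26 and 2.03 times as high in the bright cells, with 12 of 13 genes higher in both libraries, and other peptide hormones 2.43 and 2.34 times, with 50 of 61 higher in both. Over the 20967 genes with a UMI in both libraries, 42.7% were higher in the bright cells of both and 33.2% lower. Lists of other kinds also ran above that share, receptors of the members with 16 of 26 among them, so the counts are not read as particular to granule or hormone genes. Vgf was 5.27 and 2.92 times as high, Pcsk2 4.89 and 3.73, and Chga 2.21 and 1.94. Summed processing genes were not raised in both, at 0.916 and 1.14, with 6 of 12 genes higher in both and 4 lower. Nor were summed endocrine transcription factors, at 1.22 and 0.960, although 10 of 19 genes were higher in both and 2 lower. Furin, a convertase of all cells, was at 0.437 and 0.736. The bright cells had little of the mTEC I markers, at 0.148 and 0.315 with 7 of 7 lower in both, and more of the mTEC II markers, at 1.60 and 1.42 with 9 of 9 higher. Markers of other cells differed as well. Thymocyte markers were at 115 and 63.3 CPM in bright cells against 31.8 and 30.3 in the rest, with 10 of 12 genes higher in both libraries and none at 0, and myeloid markers at 974 and 778 CPM against 308 and 406, with 6 of 6 higher. Mesenchymal markers were 1.51 and 1.82 times as high, with 6 of 8 genes higher in both, and endothelial markers 1.62 and 1.65 times, with 3 of 5, while cycling markers were at 0.398 and 0.618 of the level in the rest, with 8 of 8 lower in both. Bright cells were deeper, with medians of 11500 and 13314 UMIs against 9147 and 10913, and the part of depth, of other cells in the droplet or of the wide transcription of mTEC II cells in these ratios was not tested.

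For each member with enough positive cells, the genes whose pattern was most alike were those with the largest ratio of CPM in positive to negative cells, taking the smaller of the 2 libraries. For Pyy this was Ppy, at 65.7 and 7.51 times, followed by Prss29 at 1.98 and 1.97. For Gip it was Nppa (atrial natriuretic peptide) at 28.3 and 2.95, with Ins2 next at 9.67 and 2.75, and for Gal it was again Ppy, at 3.34 and 1.91, with Cck next at 2.22 and 1.76. Calca was followed most by Csn1s2a, a milk casein, at 2.59 and 2.65, and had Crhbp among its first 5 at 2.89 and 1.89, while Crhbp was followed most by Nptx2 (a neuronal pentraxin) at 4.17 and 3.07 and had Calca among its first 5 at 2.37 and 2.15. Gcg shared Csn1s2a as its first gene, at 6.56 and 4.82, Cck had Crabp1 at 2.07 and 2.12, and Nts had 1810065E05Rik at 10.8 and 2.46. Sst and Ins2 had fewer than 50 positive cells in replicate 1 and were not searched.

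In bright cells the first genes of this kind were mostly others. Pyy kept Ppy, while the first gene was Csrp3 for Cck (26.1 and 23.5), Vip for Gip (17.2 and 10.7), Orm2 for Gal (16.1 and 12.3) and S100z for Crhbp, and the ratios of Ppy and S100z follow with the neighbours. Ppy and S100z lie beside Pyy and Crhbp on the chromosome, and neighbouring genes were then examined, which was not planned. Within 100 kb of the 10 members lay 43 annotated neighbours in the count tables, of which 10 had at least 10 UMIs in the bright cells of both libraries. Of these, 5 were at least 2-fold higher in the bright cells of both, among them Ppy and S100z, which had prompted the search. Without them it was 3 of 8, where Igf2bp1 rested on 2 bright cells of replicate 1. The same rule was met by 4.59% to 8.54% of all genes read, depending on the member, and 8 neighbours are too few to read a share from.

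Ppy, 5.357 kb from Pyy on the same strand, was 243 and 86.0 times as high in cells bright for Pyy as in cells without it, and 75.0% and 79.6% of the bright cells had a Ppy UMI, against 2.58% and 14.7% of cells without Pyy. S100z, 32.344 kb from Crhbp, was 11.4 and 7.93 times as high and was found in 34.2% and 49.3% of the bright cells, against 4.39% and 6.59%. Igf2bp1, 18.605 kb from Gip, was 25.6 and 14.8 times as high but rested on 2 of 20 and 14 of 112 bright cells. Lyzl4, 82.149 kb from Cck, was 21.1 and 3.39 times as high, and Calcb, 82.286 kb from Calca, 2.75 and 2.43 times. Ppy and Calcb are paralogs of the members beside them, and whether reads of one were counted for the other was not tested. The other 5 neighbours were not 2-fold higher, among them Lsm12 (1.09 and 1.10) and G6pc3 (1.11 and 0.746) beside Pyy, and Snf8 (1.30 and 1.05) only 4.054 kb from Gip. For Nts, Gal, Sst, Gcg and Ins2 no neighbour reached the minimum of UMIs.

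**Figure D5:**
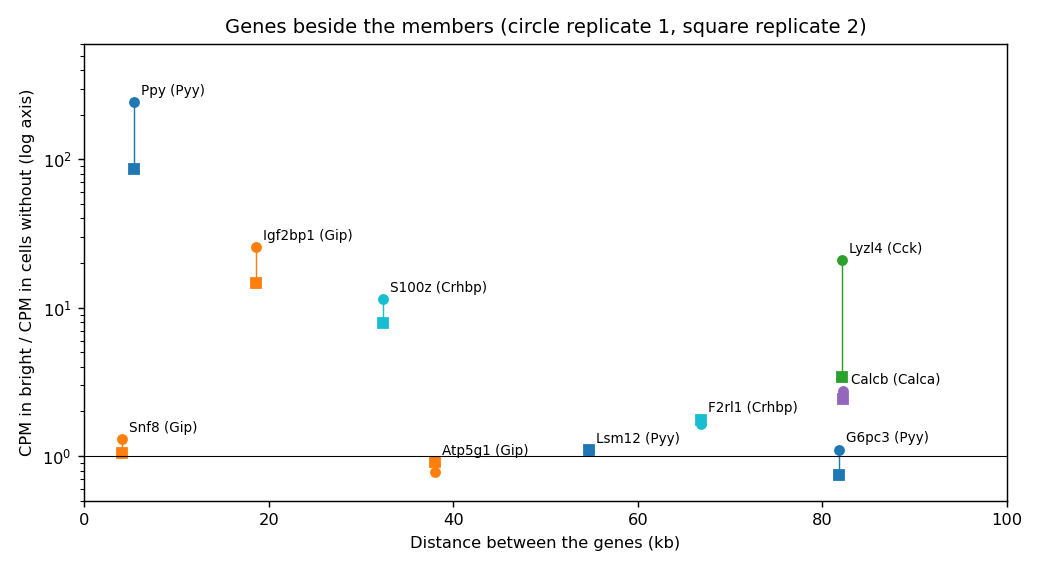
Ratio of the level of each neighbour in cells bright for the gene named in brackets to its level in cells without that gene (log axis), against the distance between both genes in kb, with circles for replicate 1 and squares for replicate 2. Ppy beside Pyy stands at 243 and 86.0, while Lsm12, G6pc3, Snf8 and Atp5g1 lie near 1.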

How the data were processed

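The 8 libraries were prepared with the 10x Chromium v2 kit for 3′ ends and sequenced on a NextSeq. Per the submitters' processing notes, bcl2fastq 2.17, STAR 2.5.1b and Cell Ranger 2.0.1 were used with mm10, although matrix headers of data set 2 name version 3.0.1. The authors deposited raw UMI counts per gene and called cell, without normalization. E17.5 cTEC and both adult replicates 2 formed data set 2 (3 libraries), and the other 5 libraries data set 1. The 27514 genes in both gene lists, 99.1% to 99.9% of UMIs, were used. Cells with over 5% mitochondrial UMIs or over 5000 genes were left out, as in the study. The cells left in data set 1 equalled the numbers given in the methods of the study and those of data set 2 did not, and the clusters of contaminants that the study removed afterwards were kept here.

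Counts were summed per library (mTEC against cTEC, with data set as a term) or per library and Aire class (library as a block, since both sums come from the same mice and capture) and fitted over all genes with edgeR 4.0.16 (R 4.3.3), using filterByExpr, TMM, the quasi-likelihood test, Benjamini-Hochberg adjustment and a threshold of 0.05. DESeq2 1.42.0 was the alternative test. The SE was derived from the estimate and its F statistic. On simulated data with 200 genes changed 4-fold, the fit of mTEC against cTEC recovered 176 with 3.83% of calls false, and the Aire fit recovered 193 with 3.98% false. The changed genes were taken only from those above a set level, and counts were drawn from the fitted dispersions. These rates are therefore not the power for the members, and on the real counts the Aire fit called 0 genes. Shares, co-detection and levels by Aire were described per library without a test (Python 3.11.15, numpy 2.4.6, scipy 1.17.1, pandas 2.3.3), after thinning to 3000 UMIs across libraries or 6000 within mTEC. Doublets were not called. Pairs were counted over all 45, and bright pairs are named with at least 5 cells positive for both in each library.

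Members and gene lists were chosen with earlier results of these data known. Named genes were the members, the 3 most abundant and the most changed genes of each list, and up to 5 genes most alike to a member, of which the text gives a part. Bright cells, neighbours, lists in bright cells, the split of lists by cTEC UMIs and the product limit for pairs were added after values were seen.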

Additional observations from a re-analysis of the deposited data

How the results depend on the processing

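No member difference of either fit changed direction under any alternative run. For the 7 members without a UMI in adult cTEC the direction between mTEC and cTEC was fixed beforehand, so there it is read for Calca, Gal and Cck only. The counts of members below include these 7 and are not read as support. Between adult mTEC and adult cTEC, 5110 genes were called, against 2634 by DESeq2 (1715 higher, 919 lower). Leaving out one library gave 2051 to 2922 genes, with 1348 to 2079 higher and 619 to 869 lower, and 8 to 10 of the members. Other scaling (5042), no filter (4793), no term for the data set (4257), all deposited cells (5173) and removal of thymocyte-marked cells (5096) stayed within 1.5 times, and all 10 members were called in each. Of the 100 member differences recomputed, 92 stayed on their side of the threshold and 8, of Gip, Sst, Ins2 and Cck, did not.

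Between Aire-positive and Aire-negative cells DESeq2 called 1650 genes (909 higher, 741 lower) and 9 of the members, against 0 by edgeR, where 4326 genes had an unadjusted p under 0.05. The cause was not tested. Without the replicate block edgeR also called 0 genes, and the adjusted p of the members was 0.156 to 0.616. Each library alone gave the same direction for all 10. Shares of positive cells depended on depth, and against cells thinned to 6000 UMIs 15 of 20 moved beyond their interval when cells were not thinned, 13 of 20 at 3000 UMIs and none of 20 with all deposited cells. The mean UMIs per positive cell moved in 9 of 20 after thinning to 6000. The ratio of the share in replicate 2 to that in replicate 1 passed from above to below 1 when 10 UMIs were required, from 1.86 to 0.815 for Calca and from 1.27 to 0.753 for Gcg. In replicate 2 the co-detection of Calca with Ins2 went from 0.976 to 1.21 with all UMIs, of Ins2 with Crhbp from 0.907 to 1.16, of Cck with Sst from 0.864 to 1.11 and of Cck with Ins2 from 0.945 to 1.10, while Sst with Ins2 went from 1.08 to 0.984 and, in replicate 1, Gcg with Ins2 from 2.03 to 0.803 on 1 cell with both.

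Each lineage of the adult rests on 2 libraries, which are also 2 data sets, and each earlier stage on 1, so no age difference was tested. Adult cTEC were few and shallow, so 0 UMIs there do not show that a transcript was absent from the cells.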

Other observations

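Cells with more than 5000 detected genes were left out above, 34 in mTEC replicate 1 and 337 in replicate 2, with medians of 31591.5 and 31371 UMIs. All 10 members had a lower CPM in these cells than in the cells kept, in both libraries, with a median ratio of 0.161 in replicate 1 and 0.486 in replicate 2, while Aire was at 600 and 420 CPM against 433 and 398. The share of all genes lower there was not computed. The share of positive cells went the other way in replicate 2 for all 10 members, such as 68.5% against 38.2% for Pyy and 12.5% against 6.61% for Sst. In replicate 1 it was higher for most, but not for Cck, Gcg and Ins2. There Cck, Sst and Gcg had 1 positive cell each over the limit. Mtl5, 2.092 kb from Gal, was below the minimum of UMIs set for neighbours, with 6 and 26 UMIs in cells bright for Gal, and was 49.8 and 57.7 times as high there as in cells without Gal. It is 1 gene picked from the neighbours below that minimum, which 10 of 43 reached. Others below it were not higher in both, such as Tmem101 beside Pyy (1.15 and 0.703), and no share is read from them.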
